A study of Homo sapiens with 16 samples.

Results

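Serpins are a superfamily of proteins that share a fold with an exposed reactive centre loop, and the 34 genes described here are the protein-coding genes of the deposited count table whose symbol is SERPIN followed by a clade letter from A to I and a number. They are 34 of 58735 genes in the table, of which 19951 are protein-coding. By clade they comprise 10 genes of clade A, 13 of clade B, 3 of clade E, 2 each of clades F and I, and 1 each of clades C, D, G and H. They were measured by poly(A) RNA-seq in 4 human breast cancer lines, in 8 groups with 2 libraries each. HCC1806, a triple-negative basal-like line from a squamous carcinoma of the breast, and BT474, a luminal line with amplified ERBB2, were each grown as monolayers and as spheroids sampled on day 10 and on day 20. CAL148, a triple-negative line with luminal features, and ZR-75-30, a luminal line with amplified ERBB2, were sampled as monolayers only. No agent, transgene or knockdown is named in the labels, and all lines received 10% fetal bovine serum. HCC1806 and ZR-75-30 were kept in RPMI and BT474 and CAL148 in DMEM, so between lines of different medium the line and its medium cannot be told apart. How the spheroids were formed is not given in the sources used here, and each line is a single model of its kind.

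An inhibitory serpin works as a suicide substrate: the protease cuts the reactive centre loop, the loop inserts into the body of the serpin, and the protease stays trapped and distorted. Most clade A, C, D, E, F and G serpins are secreted, many of them by the liver, and control coagulation, fibrinolysis, complement and elastase. Clade B serpins stay largely inside the cell, and several are hallmarks of stratified and squamous epithelium, where they hold back cathepsins and serine proteases. Some members have lost protease inhibition and act as hormone carriers (SERPINA6, SERPINA7), as a collagen chaperone (SERPINH1) or in other ways (SERPINB5, SERPINF1).

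SERPINB3 and SERPINB4, the squamous cell carcinoma antigens, are near copies whose reads could be exchanged, so their sequences are shown before their values. Their coding sequences (GENCODE 29) have 1173 bases each, differ at 56 positions and are 95.2% identical, with a longest identical run of 129 bases. Of 1024 windows of 150 bases, the read length, 0 were the same in both, so each full-length read within the coding sequence covers at least 1 difference. The 90 coding bases from 970 to 1059 hold 13 of the differences, marked in capitals.

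SERPINB3 coding bases: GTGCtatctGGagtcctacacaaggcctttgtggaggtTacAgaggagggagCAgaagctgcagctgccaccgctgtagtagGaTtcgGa
SERPINB4 coding bases: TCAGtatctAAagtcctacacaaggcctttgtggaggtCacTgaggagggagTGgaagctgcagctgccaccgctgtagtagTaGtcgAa

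The 250 bases upstream of the RefSeq starts (GRCh38.p14) were closer still, with 247 of 250 identical (98.8%). SERPINB3 lies on the minus strand with this window at chr18:63661894-63662143, and SERPINB4 on the minus strand at chr18:63644257-63644506. Capitals mark the differing bases.

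SERPINB3 upstream: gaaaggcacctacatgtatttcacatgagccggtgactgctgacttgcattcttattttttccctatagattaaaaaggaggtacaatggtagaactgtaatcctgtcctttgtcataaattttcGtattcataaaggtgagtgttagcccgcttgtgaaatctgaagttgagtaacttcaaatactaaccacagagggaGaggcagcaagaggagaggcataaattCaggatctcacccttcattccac
SERPINB4 upstream: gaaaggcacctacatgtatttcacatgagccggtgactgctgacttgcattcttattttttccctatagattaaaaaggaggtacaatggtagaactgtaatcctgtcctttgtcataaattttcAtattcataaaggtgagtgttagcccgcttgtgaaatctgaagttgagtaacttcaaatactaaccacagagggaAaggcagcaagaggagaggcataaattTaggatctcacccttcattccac

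Of the 13 clade B genes, 10 lie side by side on chromosome 18 between 63476761 and 64019779 (GRCh38), and the other 3 (SERPINB1, SERPINB6 and SERPINB9) lie on chromosome 6. The chromosome 18 genes had, as the values show, their highest group means in HCC1806, so their upstream windows were searched for 5 motifs on both strands. SERPINB6 and SERPINB9 also had their highest group means in HCC1806, both in monolayers. For SERPINB6 that mean was 154 CPM with an SD of 75.7. Its means in HCC1806 spheroids (82.6 and 75.3 CPM) lay below those of CAL148 (116) and ZR-75-30 (119). The motif TGANTCA, an AP-1-type sequence, was in the windows of 5 of the 8 chromosome 18 genes that could be matched, and in 7 of all 27 matched serpins, while 6.6% of 27305 promoters of the same length held it. Windows of 3 genes that held the match and were high in HCC1806 are shown, with the match in capitals: SERPINB2 (chr18:63887455-63887704, plus strand), SERPINB5 (chr18:63476708-63476957, plus strand) and SERPINB13 (chr18:63587093-63587342, plus strand).

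SERPINB2 upstream: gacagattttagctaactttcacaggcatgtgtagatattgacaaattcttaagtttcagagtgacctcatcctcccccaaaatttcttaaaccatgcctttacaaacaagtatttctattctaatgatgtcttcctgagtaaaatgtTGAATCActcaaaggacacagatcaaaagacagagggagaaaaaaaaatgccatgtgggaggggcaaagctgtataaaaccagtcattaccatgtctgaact
SERPINB5 upstream: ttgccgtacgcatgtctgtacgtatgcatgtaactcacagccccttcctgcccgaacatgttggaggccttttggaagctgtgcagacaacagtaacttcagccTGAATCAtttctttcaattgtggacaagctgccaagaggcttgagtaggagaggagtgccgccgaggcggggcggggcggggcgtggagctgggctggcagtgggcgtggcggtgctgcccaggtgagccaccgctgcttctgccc
SERPINB13 upstream: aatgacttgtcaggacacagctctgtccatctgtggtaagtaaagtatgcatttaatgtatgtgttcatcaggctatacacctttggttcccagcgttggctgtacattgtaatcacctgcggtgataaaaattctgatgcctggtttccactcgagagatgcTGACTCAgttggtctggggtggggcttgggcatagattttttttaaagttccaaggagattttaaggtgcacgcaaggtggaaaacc

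The match began 102 bases upstream of the start in SERPINB2, 146 in SERPINB5 and 87 in SERPINB13. SERPINB12 had a match 45 bases upstream and SERPINB8 had matches at 185 and 28. SERPINB3, SERPINB4 and SERPINB7, whose highest group means were also in HCC1806, held no match. Outside chromosome 18 the matches were in SERPINE3 and SERPINI2, at 57 and 16 bases. Those genes were close to absent, with highest group means of 0.142 and 0.0473 CPM. The other motifs were ACGTG (3 of 27 serpins, 18.7% of all promoters), TATAAA (5 of 27, 11.1%), TTNNGNAA (13 of 27, 33.6%) and a palindromic HNF1-type motif (0 of 27, 0.00366%). A match is a match of letters and not a measured binding site. RefSeq starts can differ from the gene starts of the counted annotation.

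Library totals ran from 29696358 to 72489002 counts, so that the limit a count of 0 allows (3 counts) lay between 0.0421 and 0.146 CPM (a gene's counts relative to its library's total, scaled between libraries with TMM factors). The HCC1806 monolayer pair stood apart from the other HCC1806 and BT474 groups: the SD of the log2 difference between its replicates over genes was 1.37, against 0.215 to 0.322 in those 5 groups, and mitochondrial transcripts made up 17.8% of replicate 1 and 0.768% of replicate 2. CAL148 (0.620) and ZR-75-30 (0.767, with mitochondrial shares of 1.96% and 20.5%) lay between. Line markers matched the labels, with summed ERBB2, GRB7 and ESR1 of 6551 to 10050 CPM in BT474 and ZR-75-30 against at most 363.6 elsewhere, and KRT5, KRT14 and KRT6A summing to at least 3388 CPM in HCC1806 and at most 0.285 elsewhere. Of markers of other cell types, PTPRC was at 0 in the BT474, CAL148 and ZR-75-30 groups, the 6 fibroblast markers summed to 73.8 to 102 CPM in BT474 with DCN and PDGFRB at 0, to 18.6 to 24.5 in ZR-75-30, to 1.79 to 6.18 in CAL148 and to 21.2 to 98.4 in HCC1806, and the 5 hepatocyte markers together stayed at or below 1.63 CPM in each library. The summed 5 leukocyte markers reached 8.60 CPM in an HCC1806 monolayer library and at most 3.41 elsewhere. The labels do not say whether 2 replicates were separate cultures, so p-values measure only the spread between these samples, which may be technical. In such bulk RNA, fewer cells of a type and less RNA per cell cannot be told apart. Paired values are those of replicates 1 and 2, and a call is a Benjamini-Hochberg adjusted p under 0.05 over all genes in edgeR's quasi-likelihood test.

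Summed over all members per kilobase of exon, serpins were highest in HCC1806, where the 6 libraries held 184 to 270.1 CPM per kilobase, and lowest in the monolayers of BT474 (54.7 and 50.5) and ZR-75-30 (55.0 and 67.4). The leading clade was not the same in all lines. Clade B made up 71.7% to 77.0% of the sum in HCC1806 spheroids and 74.4% in monolayer replicate 2, while in monolayer replicate 1 clade B (42.5%) lay below clade H (45.4%). The leaders elsewhere were clade A with 56.1% to 62.8% in BT474 spheroids, clade I with 69.9% and 75.5% in CAL148, and clade B with 50.1% and 45.3% in ZR-75-30. In BT474 monolayers the single clade H gene led with 58.4% and 47.7%.

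**Figure D1:**
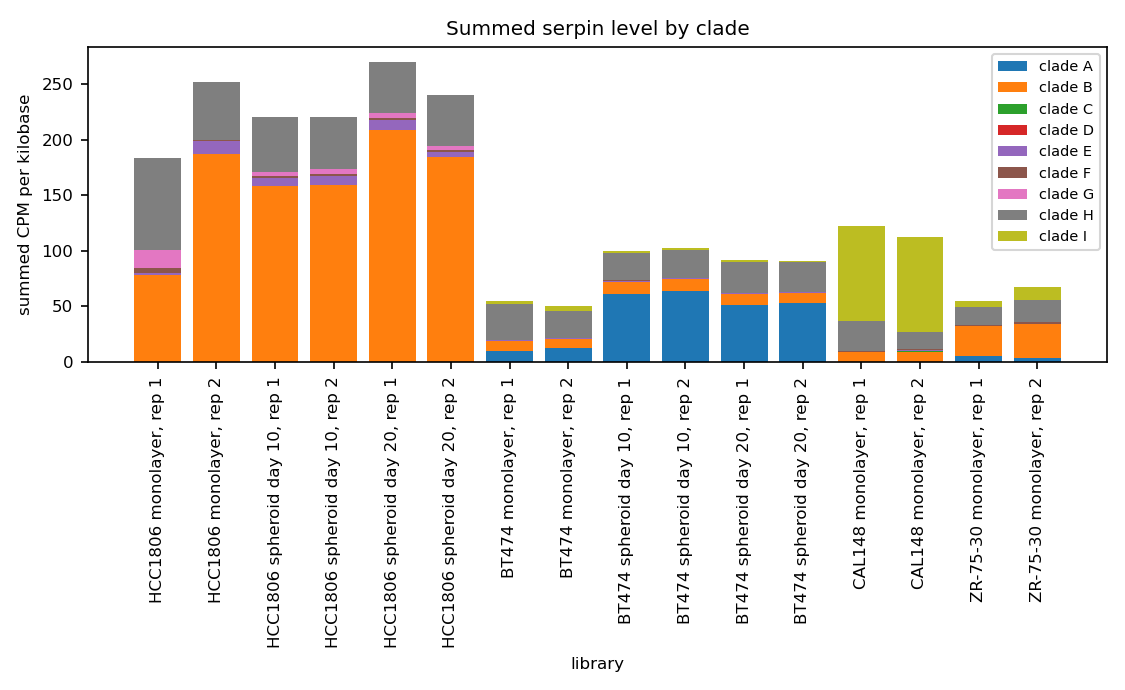
Stacked bars give the summed level of the 34 serpins in each of the 16 libraries, in CPM per kilobase of exon, coloured by clade. Clade B fills most of the HCC1806 spheroid bars, clade A most of the BT474 spheroid bars and clade I most of the CAL148 bars.

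**Figure D2:**
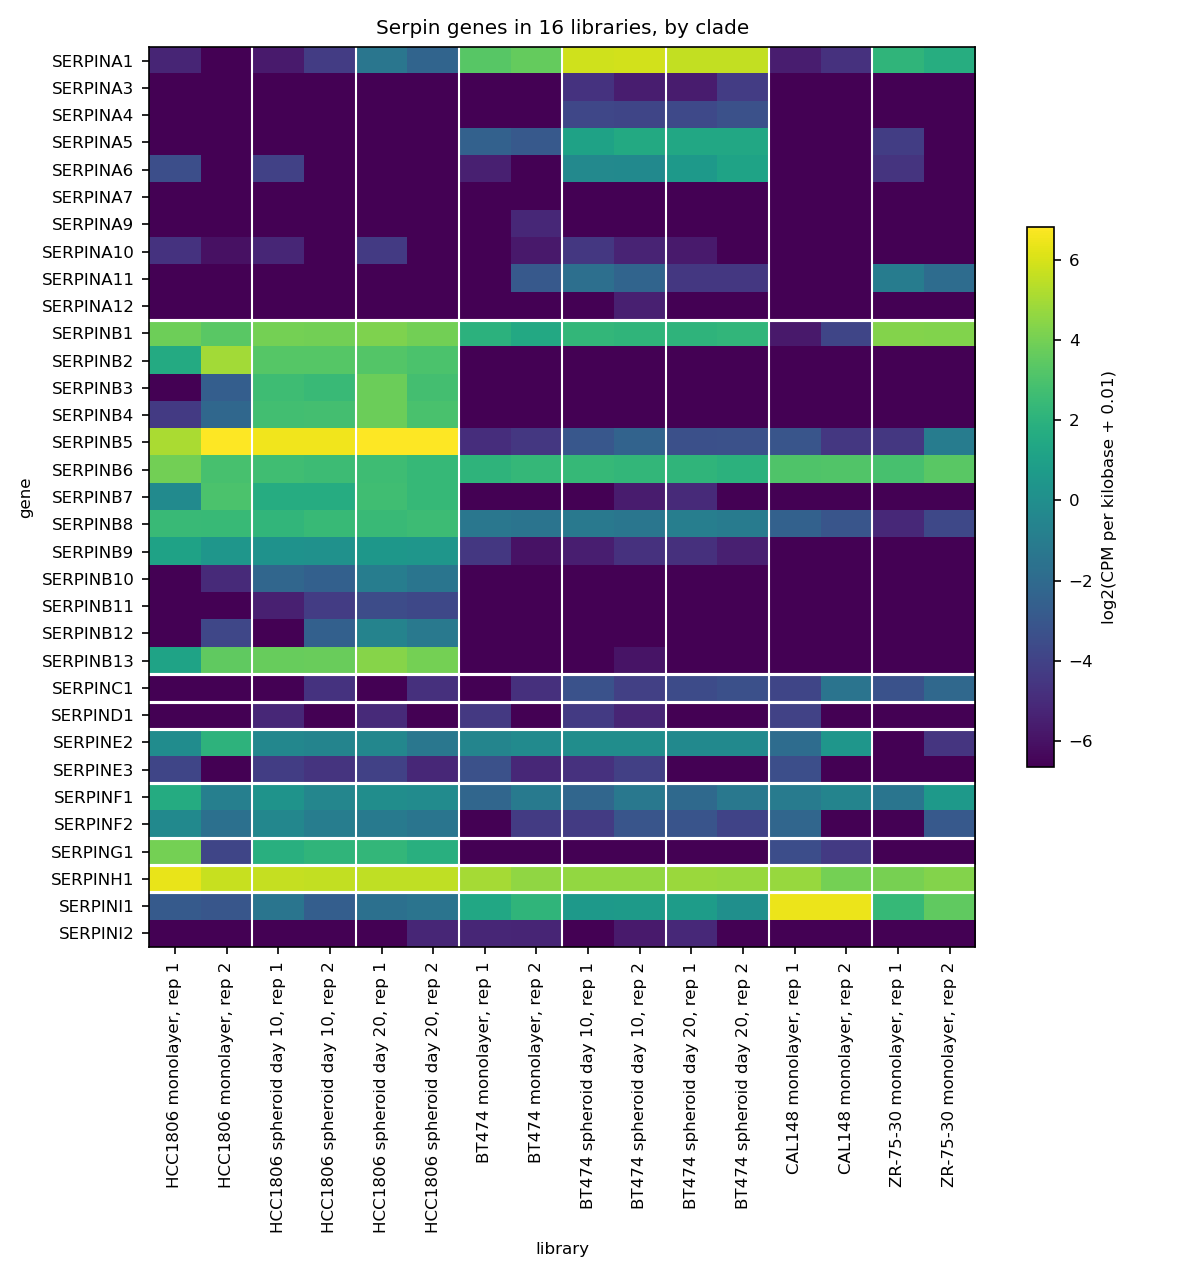
Each row is a serpin gene and each column 1 of the 16 libraries, with colour for log2(CPM per kilobase + 0.01). The clade B genes of chromosome 18 are brightest in HCC1806 columns, but SERPINB3, SERPINB4, SERPINB10, SERPINB11 and SERPINB12 mainly in those of spheroids. SERPINI1 is brightest in CAL148, and SERPINB6 and SERPINH1 are bright in all columns.

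Among monolayers, 17 of the 34 genes passed the count filter, and 13 of the 17 differed among the 4 lines in edgeR's quasi-likelihood F test, where 33.9% of all 19594 genes did. Genes that passed the filter through 1 line alone were bound to differ, so this count is a description. SERPINB2, SERPINB7 and SERPINB13 had 0 counts in the monolayers of all lines but HCC1806. The 4 not called were SERPINA5, SERPINB6, SERPINF1 and SERPINF2. SERPINI1, neuroserpin, an inhibitor of tissue plasminogen activator best known from neurons, had the smallest adjusted p (0.00101). It stood at 207 and 205 CPM in CAL148, at 12.6 and 28.0 in ZR-75-30, at 6.49 and 10.7 in BT474, and at 0.316 and 0.272 in HCC1806. No 2 of the lines overlapped, and CAL148 was about as high in 1 library as in the other. Per kilobase, SERPINI1 was also the most abundant serpin of CAL148, at 85.5 and 84.7 CPM per kilobase beside 26.9 and 15.8 for SERPINH1.

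SERPINB1, a cytosolic inhibitor of neutrophil elastase, was lowest in CAL148. Its monolayer levels were 61.6 and 60.4 CPM in ZR-75-30, 45.0 and 31.6 in HCC1806, 12.6 and 8.48 in BT474, and 0.0269 and 0.184 in CAL148 (adjusted p = 0.00192). CAL148 had 1 and 8 counts of this gene. SERPINA1, alpha-1-antitrypsin, the main inhibitor of neutrophil elastase in plasma, stood at 49.0 and 60.0 CPM in BT474 and at 21.9 and 16.2 in ZR-75-30, and at or below 0.138 in both other lines (adjusted p = 0.00129). The ERBB2-amplified lines thus lay above both triple-negative lines with no overlap.

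SERPINB6 and SERPINH1 were present in all lines. SERPINB6, an intracellular inhibitor of cathepsin G and trypsin-like proteases, had 207 and 100.01 CPM in HCC1806, 57.8 and 65.0 in BT474, 112 and 119 in CAL148, and 100.1 and 138 in ZR-75-30, with overlap between all lines but BT474, and was not called (adjusted p = 0.128). SERPINH1, also named HSP47, is the collagen chaperone of the endoplasmic reticulum and inhibits no protease. It had 525 and 328 CPM in HCC1806, 201 and 151 in BT474, 169 and 99.0 in CAL148, and 105 and 124 in ZR-75-30. The difference among lines was called (adjusted p = 0.0233), but leaving out 5 of the 8 libraries in turn ended the call (both BT474, both ZR-75-30 and CAL148 replicate 2). SERPINE2, protease nexin 1, an inhibitor of thrombin and urokinase, was called at adjusted p = 0.0423 and lost the call when 6 of the 8 libraries, those of BT474, CAL148 and ZR-75-30, were left out in turn. Its values within CAL148 (2.31 and 11.9 CPM) and within HCC1806 (8.28 and 36.8 CPM) were far apart.

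The 10 clade B genes of chromosome 18 had their highest group means in HCC1806, as did SERPINB9 of chromosome 6. SERPINB3, SERPINB4, SERPINB10, SERPINB11 and SERPINB12 did so in spheroids, with at most 18 counts each in the HCC1806 monolayers together. SERPINB10, SERPINB11 and SERPINB12 stayed low in spheroids too, with group means of at most 1.18 CPM. CAL148 and ZR-75-30 had no spheroids to set beside these. SERPINB9 had group means of 4.66 to 7.12 CPM in HCC1806, 0.0796 to 0.0831 in BT474, and 0 counts in CAL148 and ZR-75-30. SERPINB5, maspin, a serpin of normal breast myoepithelium that does not act as a classical inhibitor, was the most abundant serpin per kilobase in HCC1806 spheroids, at 91.2 to 111 CPM per kilobase beside 45.6 to 49.1 for SERPINH1. It stood at 135 and 444 CPM in HCC1806 monolayers, 359 and 365 on day 10, and 437 and 436 on day 20, and at or below 1.95 CPM in each library of the other lines. SERPINB13, an inhibitor of cathepsins K and L in stratified epithelium, had 9.98 and 52.9 CPM in monolayers, 59.0 and 60.4 on day 10 and 93.0 and 73.5 on day 20. Across the 4 spheroid libraries of each line it had 11470 counts in HCC1806 and 2 in BT474. SERPINB8, known to inhibit furin, was the least restricted of the 10, with 27.1 to 35.1 CPM in HCC1806 libraries, 2.07 to 3.10 in BT474 and at most 0.995 in CAL148 and ZR-75-30. It overlaps HMSD on the same strand, so some reads may be lost to or taken from that gene. SERPINB2, SERPINB3, SERPINB4, SERPINB10, SERPINB11 and SERPINB12 had 0 counts in all 10 libraries of the other lines.

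Between HCC1806 and BT474 spheroids on day 20, 18 of 24 serpins that passed the filter were called higher in HCC1806, where 37.7% of all 20606 genes were, and 4 were called lower, where 33.6% were. Filtered genes with a high level in 1 line alone were bound to differ, so this count is a description. All 13 clade B genes were among the 18. At day 20 SERPINB5 was higher in HCC1806 by 10.25 ± 0.15 (SE) on the log2 scale (adjusted p = 1.57e-14). Against 0 counts in BT474, SERPINB13 was at least 2090-fold higher, SERPINB2 at least 598-fold, SERPINB4 at least 544-fold and SERPINB3 at least 459-fold, with 3 counts over the group as the floor. SERPINB7, megsin, had 1236 counts against 2, a ratio of 584 (exact 95% interval 161 to 4830). Such intervals cover counting error only and understate the error where the 2 reads of a fragment were each counted.

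SERPINF1, SERPINF2, SERPING1 and SERPINH1 were also among the 18. SERPING1, the C1 inhibitor of complement and the contact system, was at least 383-fold higher in HCC1806, with 1215 counts against 0. SERPINF1, PEDF, a non-inhibitory secreted serpin, had 2.93 and 2.78 CPM against 0.721 and 1.25 (log2 difference 1.53 ± 0.44 SE, adjusted p = 0.0067), a call lost without BT474 spheroid day 20 replicate 1. That call and the one of SERPINB6 (0.43 ± 0.10 SE, adjusted p = 0.00155) were also lost when the HCC1806 monolayers joined the fit. The 4 genes lower in HCC1806 were SERPINA1 (log2 difference -7.38 ± 0.23 SE, adjusted p = 2.88e-10), SERPINA5, SERPINA6 and SERPINI1 (-2.04 ± 0.40 SE, adjusted p = 0.000358). SERPINA5 was at least 269-fold and SERPINA6 at least 92-fold higher in BT474, with 0 counts of each in HCC1806. SERPINA11 and SERPINE2 were not called.

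In BT474, growth as spheroids went with higher RNA of 3 secreted clade A serpins. Of the 24 tested serpins, 4 rose from monolayer to day 10, where 6.58% of all genes rose, and 1 fell, where 5.67% fell. The same genes were called on day 20, 4 higher beside 7.40% of all genes and 1 lower beside 7.24%. Both comparisons share the monolayer libraries. SERPINA6, among the genes that rose, passed the count filter through the BT474 spheroids alone. It was bound to lean higher there, so its place in these counts is a description.

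SERPINA1 went from 49.0 and 60.0 CPM in monolayers to 285 and 295 on day 10 and 231 and 234 on day 20. The 3 groups did not overlap, and day 20 lay below day 10. Its log2 change was 2.41 ± 0.16 (SE) on day 10 (adjusted p = 1.19e-05) and 2.09 ± 0.16 on day 20 (adjusted p = 2.41e-05). In BT474 spheroids it was the most abundant serpin per kilobase, at 58.2 and 60.3 CPM per kilobase on day 10 against 25.02 and 24.8 for SERPINH1, while in monolayers SERPINH1 (32.0 and 24.1) lay above it (10.0 and 12.2).

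SERPINA5, the protein C inhibitor, which also blocks urokinase and kallikreins, lay at 0.641 and 0.471 CPM in monolayers, 8.05 and 10.99 on day 10, and 10.1 and 9.99 on day 20. Both spheroid ages were above the monolayers and overlapped each other. The log2 change was 4.09 ± 0.29 (SE) on day 10 (adjusted p = 7.13e-06) and 4.17 ± 0.30 on day 20 (adjusted p = 5.25e-06). SERPINA6, corticosteroid-binding globulin, a hormone carrier in plasma, had 1 and 0 counts in the monolayers, 62 and 110 on day 10, and 102 and 159 on day 20. Its ratio to monolayer was 129 on day 10 (exact 95% interval 22.9 to 5130, adjusted p = 0.000319) and 291 on day 20 (51.9 to 11600, adjusted p = 5.79e-05).

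The other 7 clade A genes stayed low in BT474 or absent from it. SERPINA3, antichymotrypsin, went from 0 counts to 10 in each spheroid group, at least 2.50-fold and at least 3.72-fold higher. SERPINA4, kallistatin, went from 0 counts to 16 and 14, at least 4.01-fold and at least 5.21-fold, but it overlaps SERPINA5 on the same strand and may have taken reads of that gene. Neither passed the filter of the test. SERPINA11 had 0 and 0.189 CPM in monolayers, 0.437 and 0.281 on day 10 and 0.0534 and 0.0523 on day 20 and was not called. SERPINA9, SERPINA10 and SERPINA12 had at most 35 counts each over all 16 libraries, and SERPINA7 had 0.

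SERPINB5 was 0.0950 and 0.141 CPM in BT474 monolayers, 0.461 and 0.730 on day 10 and 0.347 and 0.366 on day 20, with no overlap between monolayers and spheroids. The level was low throughout, from 4 counts in a monolayer library to 52 in a day 10 library. The log2 change was 2.37 ± 0.32 (SE) on day 10 (adjusted p = 0.000291) and 1.57 ± 0.39 on day 20 (adjusted p = 0.0173). The day 20 call was lost in the 6 BT474 libraries alone (adjusted p = 0.130) and without BT474 monolayer replicate 1 or either day 20 library, and in 7 of 19 alternatives in all, with adjusted p from 0.0148 to 1. SERPINI1 fell, from 6.49 and 10.7 CPM to 3.73 and 3.90 on day 10 and 4.19 and 2.46 on day 20, without overlap. Its log2 change was -1.18 ± 0.34 (SE) on day 10 (adjusted p = 0.035) and -1.38 ± 0.34 on day 20 (adjusted p = 0.0159). Leaving out monolayer replicate 2 ended both calls, as did either day 10 library on day 10 and day 20 replicate 2 on day 20.

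**Figure D3:**
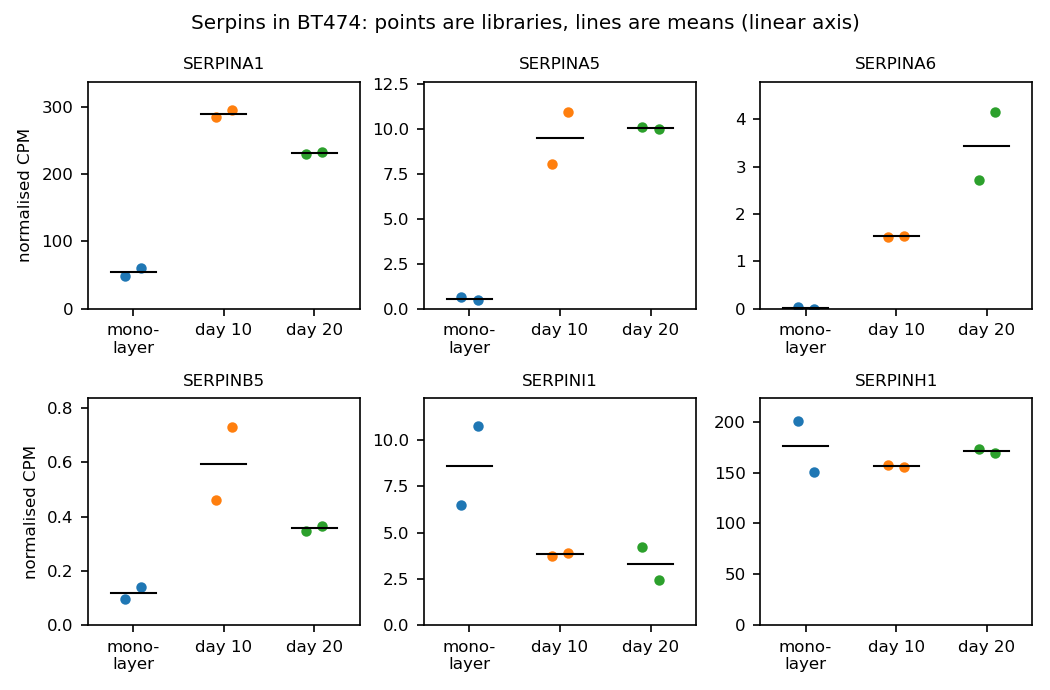
Points are the 2 BT474 libraries of each group, lines their means, in CPM on linear axes that start at 0. SERPINA1, SERPINA5, SERPINA6 and SERPINB5 lie higher in both spheroid groups than in monolayers, SERPINI1 lies lower, and SERPINH1 stays within its monolayer range of 151 to 201 CPM.

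The members that were not called in BT474 included those with the steadiest levels. SERPINH1 had 201 and 151 CPM in monolayers, 157 and 156 on day 10 and 173 and 170 on day 20 (log2 change -0.18 ± 0.10 SE, adjusted p = 0.311, and -0.04 ± 0.10, adjusted p = 0.891). SERPINB6 ran from 53.0 to 67.6 CPM, and SERPINE2 from 6.01 to 8.63. SERPINB1 had 12.6 and 8.48 CPM in monolayers and 13.4 to 14.8 in spheroids, without overlap, at adjusted p = 0.0815 and 0.130. Of 24 tested genes, 7 had 0 counts in both groups on day 10 and 8 on day 20, so no change could be estimated for them.

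All 5 BT474 calls on day 10, and on day 20 all but SERPINA5, were lost when the HCC1806 monolayer pair entered the same model of spread, although the fold changes did not move. SERPINA1 on day 10 then had a log2 change of 2.41 with an adjusted p of 0.122 over 12 libraries, against 1.63e-07 in the 6 BT474 libraries alone, and its adjusted p ranged from 3.65e-97 to 0.174 over 19 alternatives. Other measures moved with the BT474 groups. Mitochondrial transcripts were 2.31% to 2.43% in monolayers, 3.89% to 5.74% on day 10 and 5.08% to 6.30% on day 20, and MKI67, a marker of proliferation, was 116 and 145 CPM in monolayers and 64.9 to 80.1 in spheroids. The summed hepatocyte markers ALB, APOA1, APOB, TTR and FGB were 0.713 to 0.825 CPM in monolayers, 0.674 to 0.776 on day 10 with TTR at 0, and 1.46 to 1.63 on day 20. The part of these in the serpin changes was not tested.

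Between day 10 and day 20 in BT474, 0 of 24 serpins were called in either direction, in edgeR and in DESeq2, where edgeR called 0.0922% of all genes higher and 0.189% lower. At an unadjusted p under 0.05 there were 4, among them SERPINB5 (-0.80 ± 0.25 SE) and SERPINA6 (1.18 ± 0.45 SE). SERPINA1 changed by -0.32 ± 0.15 (SE, adjusted p = 0.580).

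In HCC1806, SERPINB3 and SERPINB4, known inhibitors of cathepsin L-like proteases and of cathepsin G and chymase, were higher in spheroids than in monolayers. Of 24 tested serpins these 2 rose by day 10, beside 5.14% of all genes, and 0 fell, beside 3.58%. By day 20, 4 had risen (SERPINA1, SERPINB3, SERPINB4 and SERPINB10), beside 6.24% of all genes, and 0 had fallen, beside 4.85%. SERPINB3, SERPINB4 and SERPINB10 passed the count filter through the HCC1806 spheroids alone. They were bound to lean higher there, so these counts are a description.

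SERPINB3 had 0 and 10 counts in the monolayers, 480 and 377 on day 10, and 939 and 517 on day 20, or 0 and 0.272, 11.2 and 9.86, and 24.5 and 12.4 CPM. SERPINB4 had 0.0789 and 0.435 CPM in monolayers, 13.3 and 13.96 on day 10, and 28.1 and 15.6 on day 20. Each spheroid library lay above both monolayers for both genes, and the day 20 libraries differed among themselves more than the day 10 libraries. On day 10 the log2 change of SERPINB3 was 6.10 ± 1.06 (SE, adjusted p = 0.0275) and that of SERPINB4 5.63 ± 0.78 (adjusted p = 0.0148). On day 20 they were 6.91 ± 1.1 (adjusted p = 0.0184) and 6.31 ± 0.80 (adjusted p = 0.0101).

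Summed, so that a read given to the wrong copy does not count, SERPINB3 and SERPINB4 rose by 5.85 ± 0.891 (SE, adjusted p = 0.0194) on day 10 and by 6.59 ± 0.916 (adjusted p = 0.0132) on day 20 on the log2 scale. Set against monolayer replicate 2 by itself, the log2 change on day 10 was 5.18 for SERPINB3 and 4.88 for SERPINB4, and both were also called against replicate 1, which held 0 and 2 counts. The calls of both genes were lost in the 6 HCC1806 libraries alone (adjusted p = 0.168 and 0.147 on day 10), and on day 10 without either day 10 library. On day 20 both were lost without HCC1806 spheroid day 20 replicate 1. In all, SERPINB3 lost its call in 7 of 21 alternatives on day 10 and 6 on day 20, and SERPINB4 in 3 on each day. For SERPINB3, adjusted p ranged from 7.35e-17 to 0.168 over 21 alternatives on day 10, and DESeq2 gave no call at either day.

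SERPINA1 was low in HCC1806 but climbed late. It had 2 and 0 counts in monolayers, 2 and 8 on day 10, and 71 and 39 on day 20, so that both day 20 libraries lay above the other 4. The ratio of day 20 to monolayer was 42.7 (exact 95% interval 11.5 to 357, log2 change 5.28 ± 0.83 SE, adjusted p = 0.00759). Without HCC1806 spheroid day 20 replicate 1 that call was lost, as it was in the 6 HCC1806 libraries alone (adjusted p = 0.194, within 2.21e-18 to 0.194 over 20 alternatives). The day 20 level was 1.86 and 0.933 CPM, beside 231 and 234 in BT474 spheroids of that age. SERPINB10, bomapin, had 0 and 2 counts, then 24 and 17, then 52 and 42, a ratio of 36.5 on day 20 (exact 95% interval 9.82 to 306, adjusted p = 0.0359). It overlaps SERPINB2, which had 7298 counts over all libraries, on the same strand, so its reads may be those of its neighbour. SERPINB2 had 3277 counts in the HCC1806 monolayers together, 2124 on day 10 and 1897 on day 20. Its part in the SERPINB10 counts was not tested.

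From day 10 to day 20 in HCC1806, SERPINA1 alone rose, beside 3.20% of all 20606 genes, and 0 serpins fell, beside 3.60%. Its log2 change was 3.46 ± 0.53 (SE, adjusted p = 0.00319). The call was lost when the 6 HCC1806 libraries were fitted alone (adjusted p = 1) and when the HCC1806 monolayers joined (adjusted p = 0.348), within 9.31e-21 to 1 over 19 alternatives. SERPINB13 (0.49 ± 0.13 SE, adjusted p = 0.0506), SERPINB7 (0.87 ± 0.25, adjusted p = 0.0535) and SERPINB5 (0.28 ± 0.083, adjusted p = 0.0654) just missed the threshold and were called by DESeq2. In all 3 both day 20 libraries lay above both day 10 libraries. SERPINB7 had 8.51 and 8.53 CPM on day 10 and 17.1 and 13.9 on day 20. SERPINB3 (0.82 ± 0.30, adjusted p = 0.181) and SERPINB4 (0.68 ± 0.26, adjusted p = 0.193) were not called either.

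**Figure D4:**
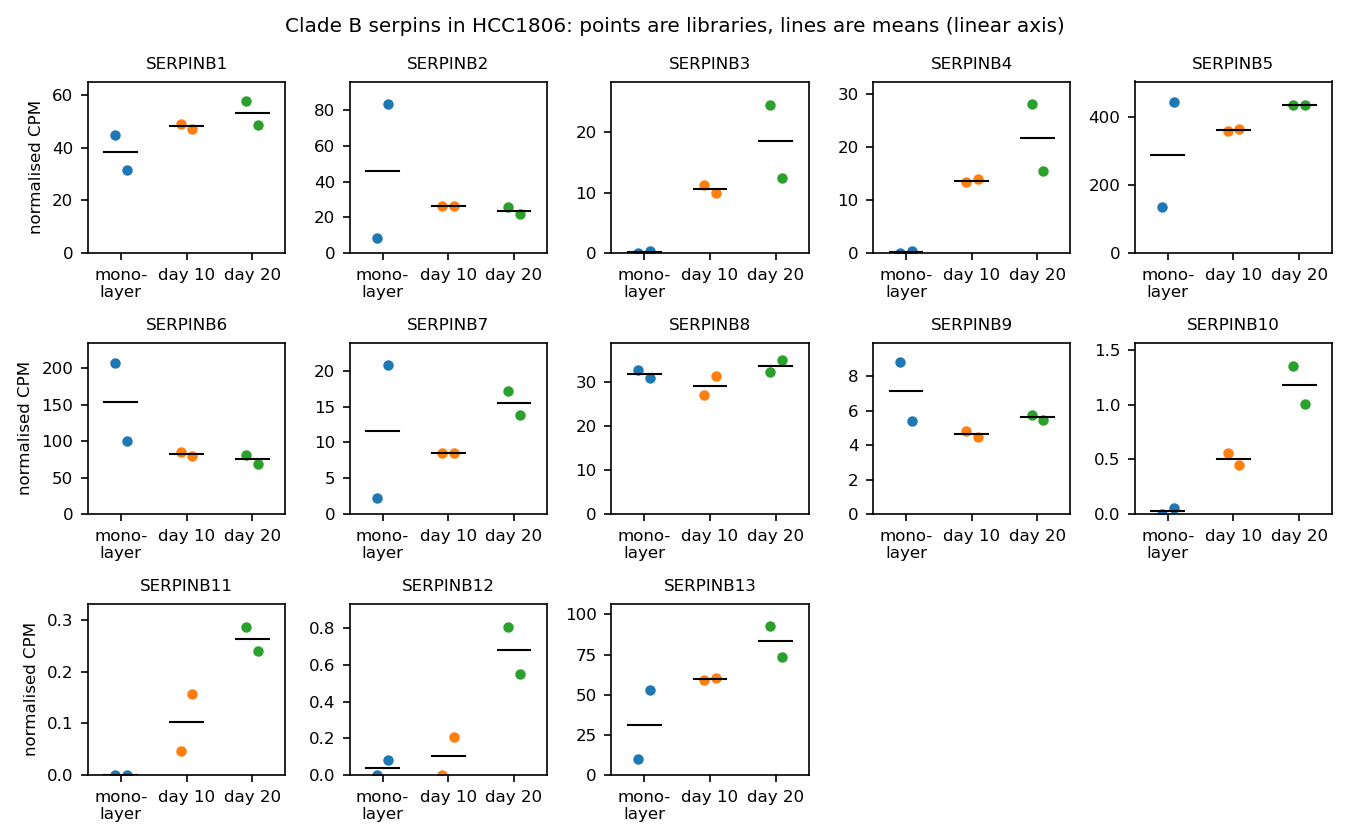
Points are the 2 HCC1806 libraries of each group, lines their means, for the 13 clade B serpins in CPM on linear axes that start at 0. SERPINB3 and SERPINB4 lie near 0 in monolayers and above 9 CPM in each spheroid library, while SERPINB2, SERPINB5, SERPINB7 and SERPINB13 are far apart within the monolayer pair.

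For several other HCC1806 serpins the 2 monolayer libraries lay far apart. SERPINB2, plasminogen activator inhibitor 2, had 8.13 and 83.5 CPM in monolayers and 21.9 to 26.4 in the 4 spheroid libraries. SERPINB5, SERPINB7, SERPINB13 and SERPINE2 (8.28 and 36.8) were likewise low in monolayer replicate 1 and high in replicate 2. SERPING1 went the other way, with 58.3 CPM in replicate 1, 0.217 in replicate 2 and 12.8 to 17.4 in spheroids. ISG15, an interferon-induced gene, had 2924 CPM in the former library and 31.4 in the latter, and its part in the level of SERPING1 was not tested.

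Against 1 monolayer library at a time the day 10 change was called in opposite directions for 4 genes. SERPINB2 changed by -1.75 against replicate 2 and by 1.70 against replicate 1 on the log2 scale, SERPINB5 by -0.38 and 1.44, SERPINB7 by -1.37 and 1.91, and SERPING1 by 5.96 and -1.99. SERPINB6 was lower in spheroids against both (-0.36, adjusted p = 0.027, and -1.31, adjusted p = 1.38e-07) but was not called with the pair (-0.90 ± 0.30 SE, adjusted p = 0.1). SERPINE2 changed by -2.65 (called) and by -0.40 (not called). With replicate 2 as the only monolayer, 9 of 24 tested serpins were called on day 10 and 10 on day 20, and with replicate 1 as the only monolayer 13 and 14, the lone library being assumed to vary like the other groups. Those fits called 38.6% and 40.5% of all genes with replicate 2 and 52.8% and 53.0% with replicate 1, in either direction.

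SERPINB1, SERPINB8, SERPINB9 and SERPINH1 varied less in HCC1806. SERPINB9, an inhibitor of granzyme B, had 8.84 and 5.41 CPM in monolayers, 4.83 and 4.50 on day 10, and 5.78 and 5.48 on day 20. SERPINH1 had 525 and 328 CPM in monolayers and 286 to 308 in spheroids (day 20 log2 change -0.58 ± 0.24 SE, adjusted p = 0.152). SERPINF1 had 9.47 and 1.68 CPM in monolayers and 2.197 to 3.62 in spheroids. SERPINB11 (at most 0.288 CPM) and SERPINB12 (at most 0.810 CPM) had their highest values on day 20. SERPINB12 had 3 counts in monolayers and 54 on day 20, a ratio of 14 (exact 95% interval 4.53 to 69.9), and was not called (adjusted p = 0.217). SERPINB11 overlaps SERPINB3 on the opposite strand, so its reads cannot be told apart from those of SERPINB3 where strand was not used.

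The change from day 10 to day 20 differed between HCC1806 and BT474 for 2 of 24 tested serpins, both more positive in HCC1806, beside 1.56% of all genes, and for 0 in the other direction, beside 1.11%. For 9 of the 24 a line had 0 counts at both ages and no difference could be estimated. SERPINA1 rose in HCC1806 and changed by -0.32 in BT474, a difference of 3.78 ± 0.55 (SE, log2, adjusted p = 0.00559), which was lost in 2 of 18 alternatives, those with 12 and with 16 libraries (adjusted p = 1 in both). SERPINB5 changed by 0.28 in HCC1806 and by -0.80 in BT474, a difference of 1.08 ± 0.265 (adjusted p = 0.0474), which was lost in 12 of 18 alternatives. For the day 20 against monolayer change, 0 of 24 serpins differed between the lines, beside 1.79% and 0.980% of all genes, with 4 at an unadjusted p under 0.05 in edgeR and 3 called by DESeq2 (SERPINA1, SERPINA6 and SERPINI1). For 10 of those 24 no difference could be estimated.

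**Figure D5:**
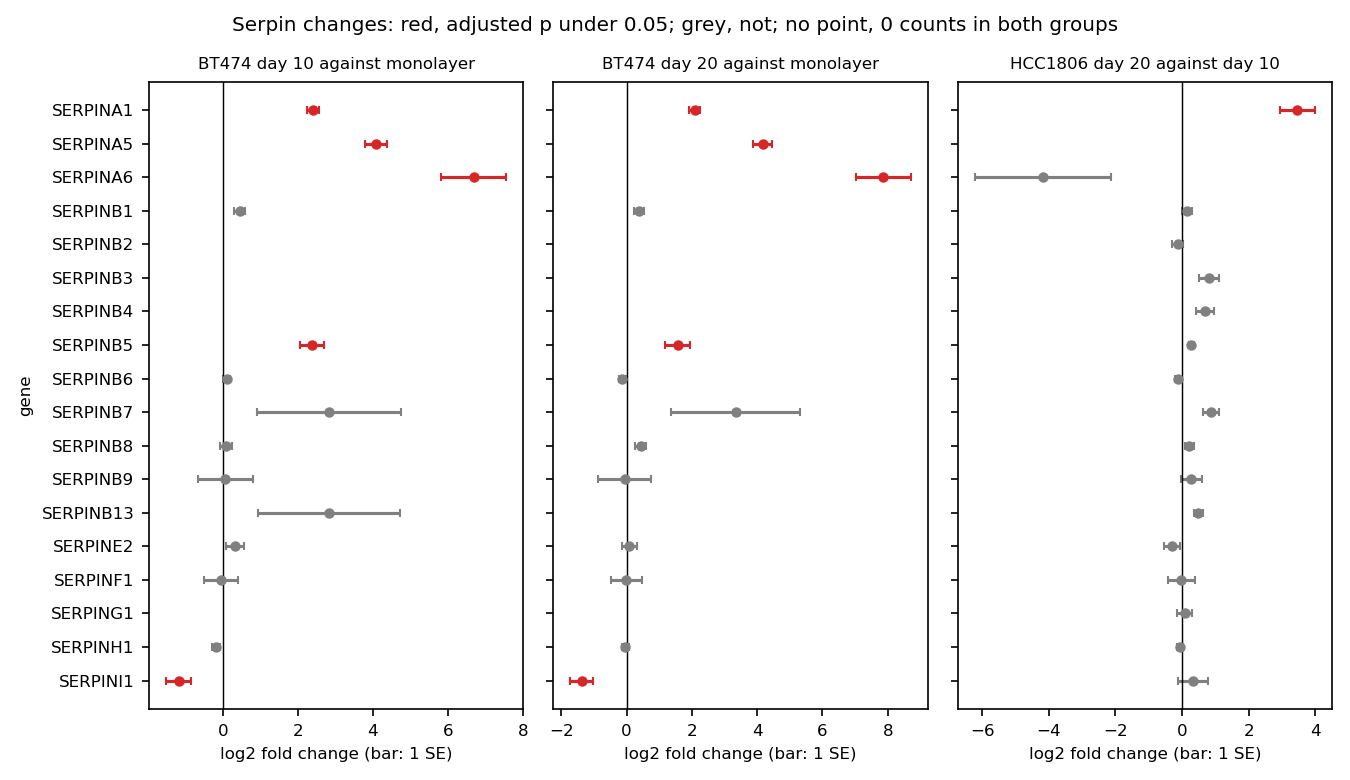
Log2 fold changes (bars 1 SE) of serpins with a group mean of at least 5 CPM, and SERPINA6, in 3 comparisons; red marks an adjusted p under 0.05 in edgeR's quasi-likelihood test, and no point is drawn where both groups had 0 counts. Points with long bars (SERPINB7 and SERPINB13 in BT474, SERPINA6 in HCC1806) rest on 0 to 4 counts a group and their size depends on the prior count, while SERPINA1 is red in all 3 panels.

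Some secreted inhibitors outside clades A and B were close to absent, unlike SERPINI1, SERPING1 and SERPINE2 above. SERPINC1, antithrombin, and SERPIND1, heparin cofactor II, had at most 0.620 and 0.134 CPM in any library, and SERPIND1 lies within PI4KA on the opposite strand. SERPINE3, which overlaps INTS6 on the opposite strand, and SERPINI2 had at most 0.238 and 0.0534 CPM. SERPINF2, alpha-2-antiplasmin, had 0.707 to 1.97 CPM in HCC1806 and at most 0.484 elsewhere.

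The proteases and partners that serpins act on were counted from lists of general knowledge. Of the 5 plasminogen system genes, 3 could be tested. In HCC1806 the activators PLAU (log2 change 2.06 on day 10, adjusted p = 0.018) and, on day 20, PLAU (1.91) and PLAT (2.59, adjusted p = 0.017) rose, so that 1 of 3 rose on day 10 and 2 of 3 on day 20, with list medians of 0.71 and 1.91 beside 0 over all genes. The shares of all genes that rose were 5.14% on day 10 and 6.24% on day 20. PLAU stood at 36.2 CPM in monolayers and 151 on day 10 (group means), and SERPINB2, an inhibitor of both activators, was not called there. In BT474, 0 of 3 changed. PLG, the gene of plasminogen itself, was at 0 counts in all 8 groups.

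Of the 23 epithelial serine proteases, 22 were tested. In BT474, 7 rose and 1 fell by day 10 and 9 rose by day 20, with list medians of 1.42 and 1.56 beside 0. Of all genes, 6.58% rose and 5.67% fell by day 10, and 7.40% rose and 7.24% fell by day 20. Kallikreins had the largest rises, KLK8 (4.79 on day 10 and 4.32 on day 20), KLK10 (4.26 and 4.46) and KLK11 (3.28 and 3.90), in the same libraries where SERPINA5 was high. KLK8 stayed low, with a mean of 0.0119 CPM in monolayers and of 0.391 and 0.291 in spheroids. KLK10 went from a mean of 0.389 CPM to 7.54 and 8.66. In HCC1806, TMPRSS4 rose by 2.66 by day 10 (1 of 22) and fell by 1.25 from day 10 to day 20, when PRSS22 and ST14 fell too (3 of 22). Beside these, 5.14% of all genes rose by day 10 and 3.60% fell from day 10 to day 20.

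Cysteine cathepsins and caspases, the targets of several clade B serpins, numbered 14, all tested. In HCC1806, 3 rose by day 10 (CTSO by 2.23, CTSH by 1.73 and CTSB by 1.06), with a median of 0.57. Their adjusted p in edgeR's quasi-likelihood test were 0.0241, 0.00804 and 0.043. The list's summed level was 875.5 CPM in the lower and 1358 in the higher HCC1806 monolayer library. By day 20, 4 were above monolayer, among them CTSO (1.76), CTSB (1.22) and CTSH (1.00), and CTSZ was lower (-1.19), with a median of 0.29. From day 10 to day 20 3 fell (CTSS by 1.26, CTSH by 0.72 and CTSL by 0.64) and 1 rose. The shares of all genes called in these comparisons were those given above for the serpins. In BT474, 5 rose by day 10 (6.58% of all genes) and 3 rose and 1 fell by day 20 (7.40% and 7.24%), with medians of 0.41 and 0.27. Of 12 coagulation and complement proteases 9 were tested, and in BT474 3 rose by day 10 (F12 by 1.13, C1R by 0.95 and C1S by 0.61), while by day 20 C1R was higher (1.17) and F7 lower (-0.70), with list medians of -0.07 and 0. SERPING1, the inhibitor of C1R and C1S, had 0 counts in all 6 BT474 libraries. Leukocyte granule proteases, targets of SERPINA1, SERPINB1 and SERPINB9, reached a summed 2.64 CPM at most, with GZMA and GZMK at 0 in all 8 groups.

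Squamous differentiation genes rose in HCC1806 spheroids. Of 26 tested, 10 rose from monolayer to day 10 and 10 to day 20 (5.14% and 6.24% of all genes rose), with list medians of 1.74 and 2.29, and 16 rose and 1 fell from day 10 to day 20 (3.20% and 3.60% of all genes), with a median of 1.19 beside 0 for all genes. The summed level was 2506 to 2610 CPM in monolayers, 4987 to 5384 on day 10 and 6506 to 6680 on day 20. It did not follow the clade B sum library by library, since that sum was 188 CPM per kilobase in monolayer replicate 2 and 158 and 160 on day 10. KRT1 rose by 3.98 between the spheroid ages, from a mean of 47.0 to 737 CPM, and DSG1 by 3.60, while KRT13 fell by 0.51. In BT474 4 of 26 rose and 1 fell at each age, beside 6.58% and 5.67% of all genes on day 10 and 7.40% and 7.24% on day 20.

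Collagens and collagen-modifying enzymes, the clients and partners of SERPINH1, numbered 16 tested. In HCC1806, COL6A1 rose by 0.92 by day 10 (1 of 16), and COL3A1 (6.36) and COL1A1 (1.33) rose by day 20 (2 of 16), where 5.14% and 6.24% of all genes rose. In BT474 COL17A1 rose by 2.08 and 2.95, COL7A1 by 1.64 and 1.55 and, on day 10, COL1A1 by 0.38, and P4HA2 fell by 0.36 by day 20 (3 of 16 rose by day 10, and 2 rose and 1 fell by day 20), while SERPINH1 itself was not called in any comparison between cultures. In that line 6.58% of all genes rose by day 10, and 7.40% rose and 7.24% fell by day 20. The list's summed level ran from 1177 to 3630 CPM between the 2 HCC1806 monolayer libraries. COL1A1 and COL3A1 also stand in the list of 6 fibroblast markers, whose sum was 21.2 to 45.7 CPM in HCC1806 monolayers and 83.1 to 98.4 on day 20, while COL1A2 was at 0 in monolayers and on day 10. The part of other cells in these collagens was not tested.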

How the data were processed

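RNA was measured by poly(A) RNA-seq in 16 libraries of 4 cell lines. Per the submitters' processing notes, reads were aligned with HISAT2 2.2.1 to GRCh38 and counted per gene with featureCounts 2.0.6. Strand use, the handling of reads with several alignments and whether pairs or mates were counted are not given in the sources used here. The authors deposited a table with raw counts per gene, used for all tests, and FPKM values per gene, used only to check levels. The gene lengths in the same table gave CPM per kilobase. Groups come from the sample titles, since the treatment field names the monolayer for all samples. Low counts were even more often than odd (1.51 to 2.04 even per odd).

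Counts were analysed with edgeR 4.0.16 under R 4.3.3, using TMM factors, the filterByExpr filter (minimum count 10, minimum total 15), robust quasi-likelihood F tests and Benjamini-Hochberg adjustment over all genes, called under 0.05. HCC1806 against monolayer used 12 libraries in 6 groups (20929 genes). BT474, day 20 against day 10 and HCC1806 against BT474 used 10 libraries in 5 groups, without the HCC1806 monolayers (20606 genes), and the lines in monolayer 8 libraries (19594 genes). Leaving the HCC1806 monolayers out of those fits was chosen with earlier results of these data known. Standard errors are the absolute log2 change divided by the root of F. Displayed CPM use TMM factors over all 16 libraries. The code was tested on simulated data. Alternatives were DESeq2 1.42.0, RLE scaling, no or a stricter count filter (minimum 50), other sets of libraries, a replicate block, leaving out each library and, chosen after the data were seen, halved counts. Figures used matplotlib 3.10.9.

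All 34 members enter the counts and sums, and 1 of them is not reported here by itself. Values per library are given for the others with a group mean of at least 5 CPM, and elsewhere where a call or overlap turns on them. From the lists (5 of target proteases, 4 of other inhibitors, SERPINH1 clients, squamous genes, markers) up to 3 called genes per direction are named, by size. Calls of list genes were not repeated under the alternatives. The members and lists were chosen with earlier results of these data known.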

Additional observations from a re-analysis of the deposited data

Results flagged for a closer look

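The change of SERPINA1 from day 10 to day 20 differed between HCC1806 and BT474 by 3.78 on the log2 scale in the test of the difference itself (edgeR's quasi-likelihood test, adjusted p = 0.00559), a call lost with 12 and with 16 libraries (adjusted p = 1 in both) and kept in 16 of 18 alternatives. SERPINA1 went from 0.0467 and 0.209 CPM to 1.86 and 0.933 CPM in HCC1806, and from 285 and 295 to 231 and 234 CPM in BT474. The same difference for SERPINB5 was 1.08 (adjusted p = 0.0474), a call lost in 12 of 18 alternatives, with adjusted p from 0.0162 to 1. SERPINB5 went from 359 and 365 to 437 and 436 CPM in HCC1806, and from 0.461 and 0.730 to 0.347 and 0.366 CPM in BT474. Groups of 2 libraries are too small for a check of single outlying libraries.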

How the results depend on the processing

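Numbers below count called serpins. With the 6 HCC1806 libraries alone, 0 were called in each HCC1806 comparison (2, 4 and 1 as reported). With 12 libraries, BT474 gave 0 on day 10 and 1 on day 20 (5 and 5 as reported), HCC1806 day 20 against day 10 gave 0, and the line difference in that change gave 0. All 16 libraries gave 0 in those 4. DESeq2 gave 4 for HCC1806 day 10 against monolayer, 4 for day 20 against day 10 and 3 for the line difference in the day 20 against monolayer effect. With no filter on low counts the counts were 5, 7 and 6 in the HCC1806 comparisons, 1 for BT474 day 20 against day 10 and 4 for the line difference against monolayer. Halved counts gave 4 for HCC1806 day 20 against day 10. The line difference in that change was 1 with halved counts, RLE scaling or the replicate block. The cause of these shifts was not tested.

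Leaving out each library gave 0 to 13 for HCC1806 day 10 and 0 to 14 for day 20 against monolayer. The highest (9 and 13, then 10 and 14) came without an HCC1806 monolayer, and 0 without either day 10 library on day 10 and without HCC1806 day 20 replicate 1 on day 20. It gave 1 to 4 for HCC1806 day 20 against day 10 (4 without either BT474 monolayer or without HCC1806 day 20 replicate 2), 4 to 6 and 3 to 6 for BT474 against monolayer (3 without BT474 day 20 replicate 2), 0 to 0 for BT474 day 20 against day 10, 0 to 6 and 1 to 2 for the line differences, 20 to 23 for HCC1806 against BT474 and 10 to 14 among the lines.

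With the replicate block, HCC1806 day 10 against monolayer gave 1 and day 20 against monolayer 3. Same-numbered libraries did not deviate together (correlations from -0.553 to 0.149 over 28 pairs of groups, 3 above 0.1), so the numbers were not used as pairs. The lowest was between the HCC1806 and ZR-75-30 monolayers. There the libraries of high mitochondrial share, HCC1806 replicate 1 (17.8%) and ZR-75-30 replicate 2 (20.5%), bear different numbers. The part of this in the differences among lines was not tested. For 46 calls of single serpins, 812 alternatives left 722 called, 90 not called and 0 reversed. Of 144 levels per kilobase, 127 were within 1 SD in the authors' FPKM, with ratios of 0.948 to 1.06. Depth limits members under 1 CPM, for which a few counts decide the value.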

Other observations

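Other families of protease inhibitor moved in the same libraries. Of 9 tested cystatins, inhibitors of cysteine cathepsins, 6 rose in BT474 spheroids at each age and 0 fell, with list medians of 1.41 on day 10 and 1.92 on day 20 beside 0 over all genes, of which 6.58% and 7.40% rose. CST1 went from a mean of 10.1 CPM in monolayers to 204 on day 10 and 210.4 on day 20 (log2 changes 4.32 and 4.37, adjusted p = 0.0042 and 0.0038 in edgeR's quasi-likelihood test), and CST4 rose by 2.60 and 1.97. In HCC1806, 2 of 9 rose from monolayer to day 20, CST1 and CST4, from 0 in monolayers to means of 1.78 and 0.296 CPM (adjusted p = 0.0158 and 0.0415), while CSTA, CSTB and CST3 fell by 0.46, 0.45 and 0.37 from day 10 to day 20 (3 of 9). The shares of all genes were 6.24% rising from monolayer to day 20 and 3.60% falling from day 10 to day 20. Summed cystatins ran from 407 to 1763 CPM between the 2 HCC1806 monolayer libraries.

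Among 9 tested Kazal and Kunitz inhibitors, SPINK4 and TFPI2, which blocks the tissue factor pathway and plasmin, rose in BT474 (by 5.50 and 3.84 on day 10), and SPINT1, the inhibitor of matriptase and hepsin, fell by 0.26 on day 10 and 0.37 on day 20. In HCC1806, SPINK5, the inhibitor of epidermal kallikreins, rose by 3.43 by day 10 and 3.50 by day 20, and SPINT2 fell by 0.76 from day 10 to day 20. Of 6 tested WFDC genes, WFDC5 and PI3, the elastase inhibitor elafin, rose by 1.99 and 1.79 from day 10 to day 20 in HCC1806, and WFDC5 fell by 3.04 in BT474 by day 10 from a mean of 0.165 CPM. Of 6 tested TIMPs and macroglobulins, A2ML1 and CD109 rose in BT474 on day 10 (by 1.19 and 0.96), and 0 of 6 changed in HCC1806. In BT474, 6.58% of all genes rose and 5.67% fell by day 10, and 7.24% fell by day 20. The HCC1806 shares were 5.14% rising by day 10, 6.24% by day 20 and 3.20% between the spheroid ages, when 3.60% fell.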
